A study of Homo sapiens with 6 samples.

Results

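Antisense noncoding genes are transcribed from the DNA strand opposite a gene whose name they carry, here called the sense gene. The members described are the 184 genes whose name ends in -AS and 1 digit and whose read counts sum to at least 200 over the 6 libraries. They were taken from 1768 names of that form among 60835 distinct names in the deposited count table, of which 460 had no count at all. They were thus chosen by name and selected on the level summed over both groups, not on the difference between the groups. The RNA came from HEY, a long-established ovarian cancer line of human origin, and 3 libraries had a control siRNA (siNC) while 3 had an siRNA against CCNL2 (siCCNL2). Libraries are named by group and replicate, from siNC 1 to siCCNL2 3. CCNL2 encodes cyclin L2, a partner of CDK11 kinases found in nuclear speckles and linked to splicing of messenger RNA. A treatment of 48 h is given for all 6 libraries with mention of the CCNL2 siRNA alone, and the controls are taken to have had an equal time. HEY is 1 cell line, and no label tells whether replicates are separate cultures. If they are not, the p-values measure technical spread.

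Antisense transcripts arise in several ways. Many start close to the sense gene's own start and run the other way, from a promoter that fires in both directions, and many of these are cut short and degraded by the nuclear exosome. Others start beyond the end of the sense gene or inside it and run through its body, where they can pair with its RNA, collide with its transcription or change its chromatin. A few, such as OIP5-AS1 (also called Cyrano), are abundant, conserved RNAs with roles apart from their sense gene.

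Total counts ran from 13596286 to 18095529 per library. CCNL2 itself stood at 258 ± 10.7 CPM in siNC and 189.6 ± 11.2 CPM in siCCNL2 (CPM, counts scaled to library size with TMM factors, mean ± SD, n = 3), and its log2 fold change was -0.44 (edgeR quasi-likelihood adjusted p = 2.15e-08). Of the markers of ovarian carcinoma, PAX8 stood at 112 to 134 CPM, EMX2 had no count, and MUC16 and FOLR1 stayed under 1 CPM, and all 8 summed to 144 to 151 CPM in siNC and 128 to 136 CPM in siCCNL2. The keratins KRT7, KRT8 and KRT18 and the mesenchymal marker VIM each stood above 200 CPM in every library, while EPCAM and KRT19 stayed under 4 CPM and CDH1 under 1 CPM. The 6 epithelial markers summed to 2018 to 2100 CPM in siNC and 1527 to 1679 CPM in siCCNL2, with KRT7 at 740 to 753 CPM in siNC and 478 to 507 CPM in siCCNL2. Summed leukocyte markers did not exceed 1.75 CPM in any library, and of 4 fibroblast markers DCN had no count, while the sum was 7.12 to 9.27 CPM in siNC and 4.32 to 6.54 CPM in siCCNL2, most of it PDGFRB. The 4 endothelial markers summed to 115 to 119.9 CPM in siNC and 45.5 to 55.2 CPM in siCCNL2, nearly all of it CDH5, with VWF, CLDN5 and PECAM1 each under 3 CPM. The groups did not overlap in the ovarian carcinoma, epithelial, fibroblast and endothelial sums, each lower with siCCNL2. Within these lists SOX17 went the other way, at 5.36 to 6.26 CPM in siNC and 7.22 to 7.50 CPM in siCCNL2. EPCAM did so too, at 1.36 to 2.19 CPM in siNC and 2.45 to 2.90 CPM in siCCNL2. Mesenchymal sums overlapped, at 2666 to 2770 CPM in siNC and 2733 to 2859 CPM in siCCNL2. Of the mesenchymal markers, CDH2 rose without overlap, at 127 to 130 CPM in siNC and 144 to 152 CPM in siCCNL2. The part of all these shifts in the results below was not tested. Whether the counting used the strand of the reads is not given in the sources used here. Where a member and another gene overlap on opposite strands, their reads may therefore be mixed or left out of the counts.

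Promoter sequences are shown for 6 members on which the results turn. TRAM2-AS1 starts close to its sense gene, FBXL19-AS1 and GABPB1-AS1 rose and start 214 and 1024 bases from theirs in RefSeq, and HIF1A-AS3, SBF2-AS1 and SLC25A25-AS1 changed against their sense gene and start far from it. Each line runs 5′ to 3′ on the member's own strand and is taken from RefSeq on GRCh38.p14, from 250 bases before to 50 bases after the start. For TRAM2-AS1 the line begins at the first base outside TRAM2. Capitals mark matches to one of 6 motifs searched on both strands.
TRAM2-AS1 (chr6:52577061-52577251, plus strand): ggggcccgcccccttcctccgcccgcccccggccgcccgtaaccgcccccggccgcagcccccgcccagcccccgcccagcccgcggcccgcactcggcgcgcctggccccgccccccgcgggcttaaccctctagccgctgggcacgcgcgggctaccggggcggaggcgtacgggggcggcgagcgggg
FBXL19-AS1 (chr16:30923220-30923519, minus strand): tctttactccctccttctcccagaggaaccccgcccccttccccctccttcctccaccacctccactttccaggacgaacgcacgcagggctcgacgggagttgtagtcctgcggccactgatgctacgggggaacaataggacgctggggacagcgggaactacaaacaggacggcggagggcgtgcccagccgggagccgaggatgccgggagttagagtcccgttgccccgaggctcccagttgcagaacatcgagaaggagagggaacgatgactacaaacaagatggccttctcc
GABPB1-AS1 (chr15:50353924-50354223, plus strand): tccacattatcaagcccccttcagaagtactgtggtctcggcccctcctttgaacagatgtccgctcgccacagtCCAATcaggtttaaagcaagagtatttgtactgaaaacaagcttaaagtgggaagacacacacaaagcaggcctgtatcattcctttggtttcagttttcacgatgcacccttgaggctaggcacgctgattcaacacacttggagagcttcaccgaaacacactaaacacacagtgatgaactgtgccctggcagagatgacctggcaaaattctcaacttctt
HIF1A-AS3 (chr14:61751048-61751347, minus strand): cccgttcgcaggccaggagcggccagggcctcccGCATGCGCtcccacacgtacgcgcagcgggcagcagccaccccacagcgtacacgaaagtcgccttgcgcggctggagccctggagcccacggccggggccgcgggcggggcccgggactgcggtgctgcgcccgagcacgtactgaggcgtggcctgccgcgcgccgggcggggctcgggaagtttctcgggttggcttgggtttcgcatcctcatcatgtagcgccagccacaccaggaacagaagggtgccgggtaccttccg
SBF2-AS1 (chr11:9758043-9758342, plus strand): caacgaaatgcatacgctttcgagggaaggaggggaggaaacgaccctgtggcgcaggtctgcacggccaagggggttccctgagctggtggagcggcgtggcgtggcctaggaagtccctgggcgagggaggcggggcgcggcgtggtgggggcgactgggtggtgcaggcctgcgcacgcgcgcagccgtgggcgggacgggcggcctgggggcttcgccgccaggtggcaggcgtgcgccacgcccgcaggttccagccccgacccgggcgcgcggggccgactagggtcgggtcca
SLC25A25-AS1 (chr9:128118685-128118984, minus strand): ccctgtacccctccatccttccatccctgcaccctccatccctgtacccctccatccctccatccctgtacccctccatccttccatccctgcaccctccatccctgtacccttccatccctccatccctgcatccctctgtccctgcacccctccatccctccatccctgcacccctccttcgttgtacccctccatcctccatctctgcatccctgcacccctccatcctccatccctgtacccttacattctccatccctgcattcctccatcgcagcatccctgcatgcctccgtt
The windows differ in CG dinucleotides, the sites of DNA methylation that are dense in CpG islands. HIF1A-AS3 and SBF2-AS1 each hold 36 and FBXL19-AS1 holds 20, whereas GABPB1-AS1 holds 6 and SLC25A25-AS1 holds 3 in a run of short C-rich repeats. The TRAM2-AS1 stretch of 191 bases holds 31. RefSeq starts of TRAM2 and TRAM2-AS1 lie 142 bases apart, so the stretch runs from one start to just past the other. The RefSeq start of GABPB1-AS1 lies before the start that the deposited table gives.

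RefSeq promoter windows were found by symbol for 141 members, and their median was 23 CG dinucleotides per window, against 14 over all 35116 windows of the same length. For the 149 sense genes with such a window the median was 25. Member and sense windows overlapped in 31 of the 123 pairs where both were found. A single window was taken per member or sense gene, whereas the 35116 are all windows held. The motifs were the ETS core CCGGAAG, the NRF1 core GCGCATGC, the CCAAT box, the TATA box TATAAA, the E2F core TTCCCGCC and the cyclic AMP response element TGACGTCA, none of which overlapped another in the windows shown. The ETS core, bound among others by the factor of which GABPB1 is a subunit, was in 17.02% of member windows and 10.3% of all windows. It was in 14.8% of sense gene windows. The TATA box was in 8.51% of member windows against 11.5% of all windows, CCAAT in 32.6% against 34.6%, the NRF1 core in 4.26% against 3.05%, the E2F core in 3.55% against 3.16% and the cyclic AMP element in 4.96% against 1.85%. In sense gene windows the shares were 8.05%, 32.2%, 3.36%, 6.04% and 4.03%, in the same order. Of the 6 windows shown, GABPB1-AS1 held a CCAAT box and HIF1A-AS3 an NRF1 core on the minus strand of the window. These matches are descriptions of letters and were not tested.

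The members were mostly scarce RNAs. Their mean level ran from 2.05 to 163 CPM with a median of 4.31 CPM, and 110 of the 184 had a summed count under 500. By the deposited length-adjusted score, the antisense gene stood at a median of 0.232 times its sense gene over 178 pairs. It was above the sense gene in 48 pairs and under 0.1 times it in 59. As a share of all counts the members held 0.159% ± 0.0027 in siNC and 0.163% ± 0.0056 in siCCNL2 (SD, n = 3), which did not differ beyond their spread (exact two-sided permutation p = 0.4, where 0.1 is the smallest this design allows).

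Positions in the deposited table (GRCh38) put the pairs in several arrangements. In 43 pairs the starts faced away from each other within 1000 bases (head-to-head), in 39 the 5′ parts overlapped over a longer stretch, in 47 the 3′ parts overlapped (tail-to-tail), and in 46 one gene lay inside the other. FOXD2-AS1, SVIL-AS1 and TMEM92-AS1 lay apart from the gene they are named after, and FAM131B-AS2 was listed on the same strand as FAM131B. HOXA-AS2 and HOXB-AS1 to HOXB-AS4 are named after a gene cluster and have no sense row. GENCODE 29 classes 140 members as antisense, 22 as processed transcripts and 16 as lincRNA, and KCNJ5-AS1 and KRT10-AS1 as protein coding.

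Between siCCNL2 and siNC, 35 members were called at an adjusted p under 0.05, of which 22 rose and 13 fell, and 149 were not called. All 184 passed the filter on low counts. The share called was 19.0%, against 33.6% of the 15346 genes tested (17.2% higher and 16.5% lower). Changes were modest, and the largest fold among called members was 1.83. With a fold of at least 1.5, 20 of the 184 members were called, against 1092 of the 15346 genes tested (7.12%). The median absolute log2 fold change was 0.23 over the members and 0.19 over all tested genes. Median standard errors were 0.186 for members and 0.093 over all tested genes. The part of lower precision in the larger folds was not tested. The median log2 fold change was 0.05 over the members and 0.002 over all tested genes. The groups did not overlap in CPM for 65 members, or 35.3%, against 43.9% of all genes tested.

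Low counts go with fewer calls in these libraries, so members were set beside genes of the same summed count. From 200 to under 300 counts, 14.0% of 57 members and 15.2% of all genes were called, and from 500 to under 1000 the shares were 27.0% of 37 and 25.5%. From 1000 to under 2000 they were 40.0% of 25 members and 32.5% of genes, and from 2000 to under 16000 they were 33.3% of 12 and 47.9%. The range from 300 to under 500 stood apart, with 3 of 53 members called (5.66%) against 19.9% of genes. From 200 counts to the 15657 of the highest member, 37.8% of genes were called. That share is weighted to high counts, since the range from 2000 to under 16000 holds 6146 genes but only 12 members. These shares were not tested. The median standard error of a log2 fold change was 0.186 for members and 0.0635 for their sense genes, so a change of a size called in a sense gene could pass unseen in its antisense partner.

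**Figure D1:**
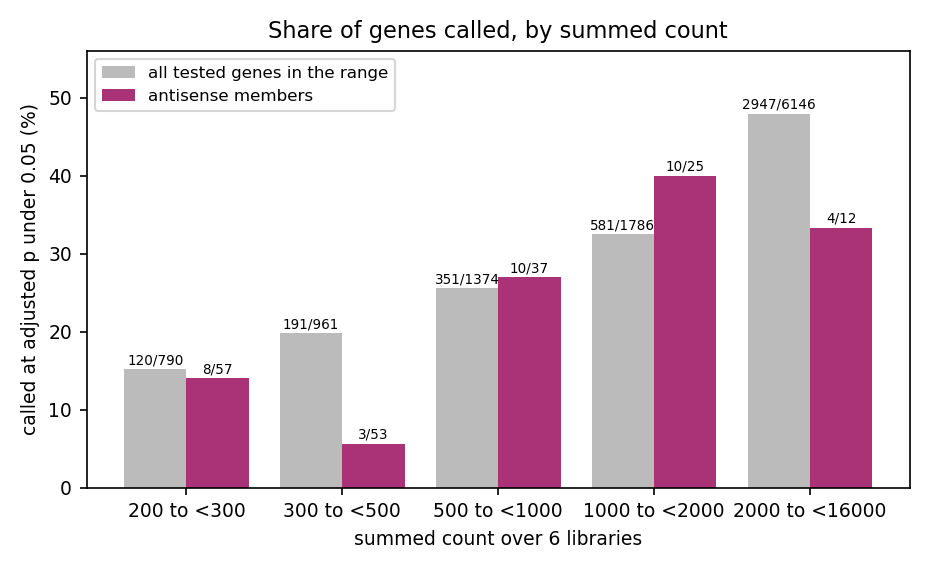
Percentage of genes called between siCCNL2 and siNC (vertical axis, edgeR adjusted p under 0.05) by summed count over the 6 libraries (horizontal axis). Grey bars are all tested genes in the range and purple bars the antisense members, with numbers called and tested above each bar. The share over all genes rises with the count, while that of the members goes up and down, and the members lie furthest below all genes in relative terms in the range from 300 to under 500 (5.66% against 19.9%).

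The strongest call among the members that rose was DLGAP1-AS2 (ENSG00000262001, chr18:3603000-3610103, plus strand), which lies inside the very long gene DLGAP1, a scaffold of neuronal synapses. It stood at 13.1, 10.6 and 12.1 CPM in siNC and 19.7, 21.2 and 19.4 CPM in siCCNL2 (log2 fold change 0.75, SE 0.10, adjusted p = 2.08e-06). The siCCNL2 libraries all lay above the siNC libraries, by more than 6 CPM. DLGAP1 itself had 3 counts in all, so no change of it could be measured.

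GABPB1-AS1 (ENSG00000244879, chr15:50354944-50372202, plus strand) stood at 13.6, 15.6 and 13.4 CPM in siNC and 24.96, 20.98 and 22.6 CPM in siCCNL2 (log2 fold change 0.69, SE 0.09, adjusted p = 2.99e-06). Its groups were well apart. GABPB1, the beta subunit of the ETS-family GA-binding protein, was at 28.8 ± 1.97 CPM in siNC and 30.8 ± 2.46 CPM in siCCNL2 and was not called (log2 fold change 0.10, SE 0.08, adjusted p = 0.371). KCNJ5-AS1, inside the potassium channel gene KCNJ5, stood at 8.72, 8.32 and 8.08 CPM in siNC and 13.6, 13.4 and 14.4 CPM in siCCNL2 (log2 fold change 0.72, SE 0.11, adjusted p = 1.43e-05), again with no overlap, while KCNJ5 had 24 counts in all. FBXL19-AS1, whose promoter is printed above, rose, at 2.20 ± 0.318 CPM in siNC and 3.92 ± 0.442 CPM in siCCNL2 (log2 fold change 0.84, SE 0.22, adjusted p = 0.00384). FBXL19, an F-box protein that binds CpG-rich DNA, rose less, at 49.9 ± 2.09 CPM in siNC and 58.3 ± 0.463 CPM in siCCNL2 (log2 fold change 0.22, SE 0.06, adjusted p = 0.00267), and the ratio of the pair was not called (adjusted p = 0.0821).

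Of 5 members from the HOX clusters, which hold the homeobox genes of body patterning, 2 rose and HOXB-AS1, HOXB-AS2 and HOXB-AS4 were not called (log2 fold changes -0.004, -0.45 and 0.48). HOXB-AS3 stood at 2.30, 1.64 and 1.82 CPM in siNC and 3.67, 3.79 and 3.11 CPM in siCCNL2 and had the largest log2 fold change of any member (log2 fold change 0.87, SE 0.23, adjusted p = 0.00481). HOXA-AS2 was at 2.21 ± 0.0374 CPM in siNC and 3.30 ± 0.285 CPM in siCCNL2 (log2 fold change 0.58, SE 0.22, adjusted p = 0.0435), but its call was lost without any 1 of 5 libraries, namely siNC 1, siNC 2, siNC 3, siCCNL2 1 or siCCNL2 3 (adjusted p = 0.0803 to 0.119). FOXD2-AS1, often studied in tumours, was at 4.77, 4.29 and 3.69 CPM in siNC and 5.97, 7.22 and 7.11 CPM in siCCNL2 (log2 fold change 0.66, SE 0.16, adjusted p = 0.0027). FOXD2, a forkhead factor starting 3403 bases away, had few reads and was not called (log2 fold change 0.55, SE 0.36, adjusted p = 0.263). FAM131B-AS2 was at 2.48 ± 0.162 CPM in siNC and 4.23 ± 1.06 CPM in siCCNL2 (log2 fold change 0.76, SE 0.22, adjusted p = 0.00913), and lost its call without siCCNL2 2 (adjusted p = 0.0602).

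Of the remaining members that rose, PCGF3-AS1 (log2 fold change 0.42, SE 0.11, adjusted p = 0.00336) kept its call without each library in turn. It runs into the 3′ part of PCGF3, a Polycomb protein gene that was not called (log2 fold change -0.02, SE 0.07, adjusted p = 0.874). The others were more fragile. NIFK-AS1 was at 2.20 ± 0.172 CPM in siNC and 3.48 ± 0.802 CPM in siCCNL2 (log2 fold change 0.67, SE 0.23, adjusted p = 0.0284) and lost its call without siNC 1, siNC 2, siNC 3, siCCNL2 1 or siCCNL2 2 (adjusted p = 0.0506 to 0.182). MCPH1-AS1 was at 2.13 ± 0.396 CPM in siNC and 3.46 ± 0.815 CPM in siCCNL2 (log2 fold change 0.70, SE 0.24, adjusted p = 0.0261) and lost it without siNC 3 or siCCNL2 3 (adjusted p = 0.109 to 0.184). DHRS4-AS1 (log2 fold change 0.46) runs past near-identical copies of DHRS4, so its reads may be uncertain, which was not tested. It lost its call without siCCNL2 3 (adjusted p = 0.0559). TTC28-AS1 (0.47) lost it without siNC 2, siNC 3 or siCCNL2 1 (adjusted p = 0.0568 to 0.135), PCBP1-AS1 (0.40) without siNC 1, siCCNL2 1 or siCCNL2 3 (adjusted p = 0.0522 to 0.102) and SLC16A1-AS1 (0.29) without siNC 3 or siCCNL2 1 (adjusted p = 0.13 to 0.192).

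Among the members that fell, OIP5-AS1 (ENSG00000247556, chr15:41283958-41322392, plus strand) was by far the most abundant. It stood at 111, 104 and 113 CPM in siNC and 83.02, 81.5 and 91.4 CPM in siCCNL2 (log2 fold change -0.36, SE 0.05, adjusted p = 6.27e-06). The siNC libraries all lay above 100 CPM and the siCCNL2 libraries all below 92 CPM. TM4SF19-AS1 had the tightest replicates, with 7.48, 7.56 and 7.70 CPM in siNC and 4.60, 4.61 and 4.51 CPM in siCCNL2 (log2 fold change -0.73, SE 0.15, adjusted p = 0.000371). SNAI3-AS1, nested with SNAI3, a member of the SNAIL transcription factor family, stood at 6.01, 7.19 and 6.82 CPM in siNC and 4.32, 3.94 and 4.06 CPM in siCCNL2 (log2 fold change -0.69, SE 0.16, adjusted p = 0.00135), and its groups did not overlap. SNAI3 itself was under 1 CPM and was not called (log2 fold change -0.63, SE 0.41, adjusted p = 0.261).

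CD44-AS1 lies inside CD44, the hyaluronan receptor gene, and stood at 4.48, 7.06 and 5.76 CPM in siNC and 4.21, 2.98 and 3.75 CPM in siCCNL2 (log2 fold change -0.64, SE 0.19, adjusted p = 0.0117). The call was lost without siNC 2 or siCCNL2 2 (adjusted p = 0.0571 to 0.104). CD44 was abundant, at 1549 ± 10.1 CPM in siNC and 1499 ± 36.5 CPM in siCCNL2, and was not called (log2 fold change -0.05, SE 0.03, adjusted p = 0.233). KLC1-AS1 was called (log2 fold change -0.34, SE 0.11, adjusted p = 0.0211) although its groups overlapped, with 17.8, 22.1 and 19.8 CPM in siNC and 18.2, 12.4 and 15.8 CPM in siCCNL2. It lost the call without siNC 2, siCCNL2 2 or siCCNL2 3 (adjusted p = 0.0621 to 0.145). THAP9-AS1, head-to-head with THAP9, was at 24.9 ± 1.49 CPM in siNC and 21.5 ± 0.767 CPM in siCCNL2 (log2 fold change -0.21, SE 0.08, adjusted p = 0.0432), and lost the call without siNC 1, siNC 2, siCCNL2 1, siCCNL2 2 or siCCNL2 3 (adjusted p = 0.0502 to 0.168).

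**Figure D2:**
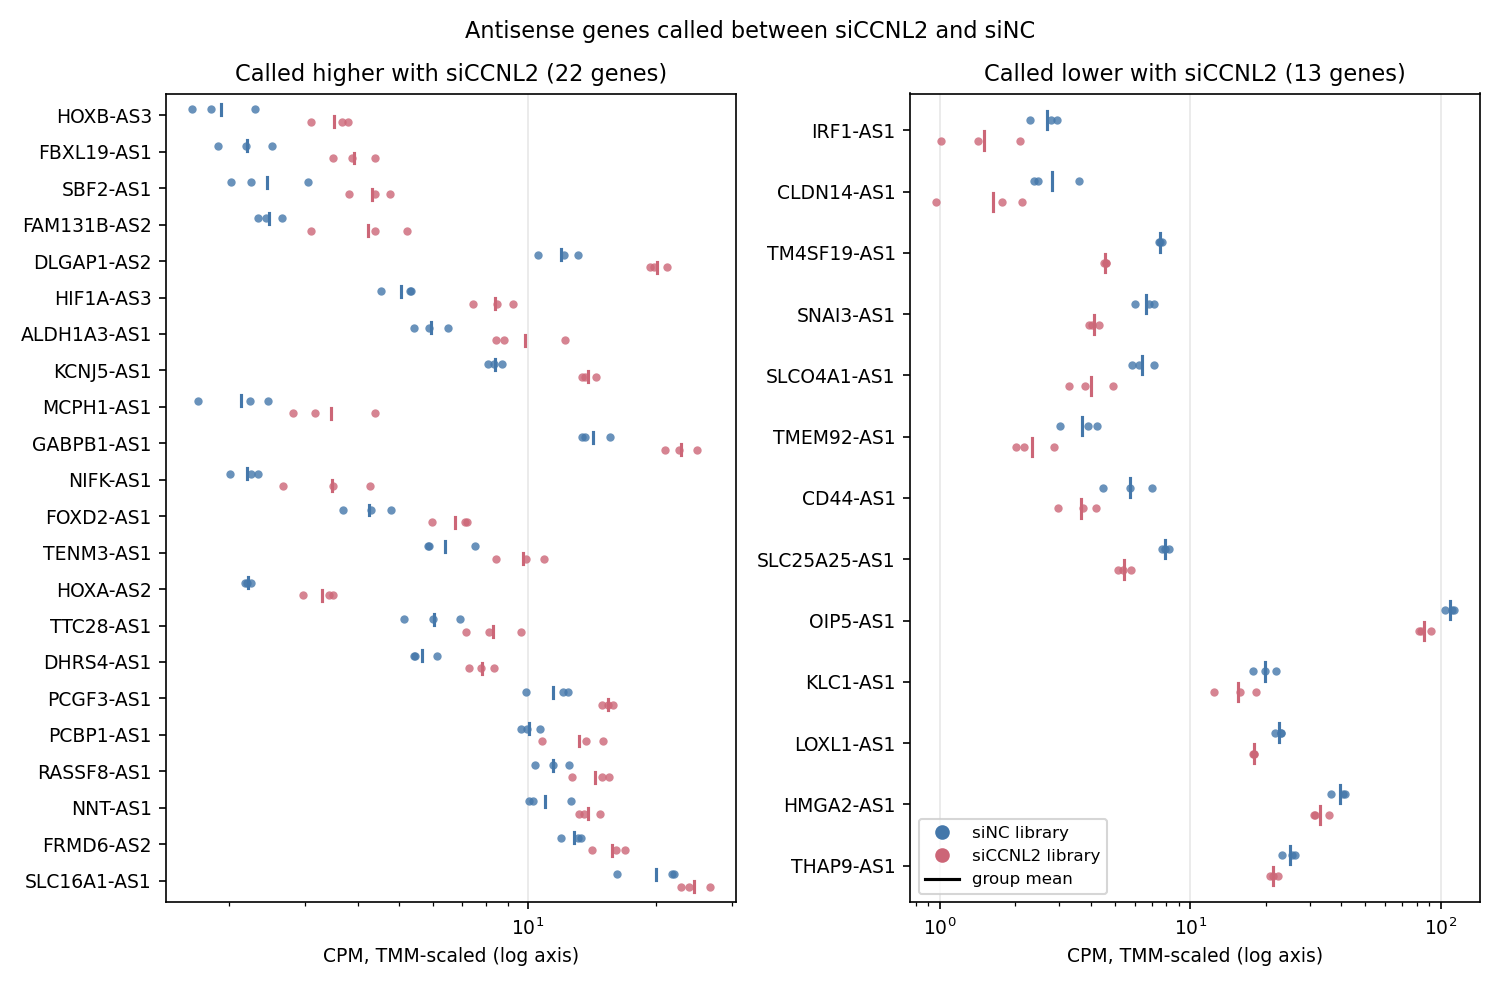
TMM-scaled CPM (horizontal log axis) of the 22 members called higher and the 13 called lower with siCCNL2, ordered by fold change with the largest at the top. Each dot is 1 library, blue for siNC and red for siCCNL2, and the vertical bar is the group mean of 3 libraries. OIP5-AS1 is the outlying abundant RNA on the right of the lower group (109 against 85.3 CPM), and KLC1-AS1 is the called gene whose groups overlap.

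The sense genes were set beside the members. Of the 184 members, 179 have a sense row, 13 of these were too low to test, and 166 pairs had both genes tested. In 71 of those pairs (42.8%) the sense gene was called, 30 higher and 41 lower, with SLCO4A1 counted for both of its antisense genes. That share lies between the 33.6% of all tested genes and the 47.9% of genes with 2000 to under 16000 counts, and its difference from the members' share was not tested. Both genes were called in 16 pairs, and in 55 the sense gene alone was called. Among 3950 other opposite-strand neighbour pairs within 1000 bases, both genes were called in 9.65%, which is close to the 9.64% of the named pairs.

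In 12 of the 16 pairs with both called, the genes moved in the same direction, 5 higher and 7 lower. The share among the other neighbour pairs with both called was 61.7% of 381. Across the 166 pairs, the log2 fold changes of antisense and sense gene correlated at Pearson r = 0.33 and Spearman rho = 0.27, a description across genes measured in the same 6 libraries. Over the 3950 other neighbour pairs, Pearson r was 0.14, and the difference was not tested. For the named pairs, Pearson r was 0.39 over 43 tail-to-tail pairs and 0.34 over 41 nested pairs, and 0.17 over 36 pairs with overlapping 5′ parts. Over 43 head-to-head pairs it was -0.02. Spearman rho for these arrangements was 0.32, 0.38, 0.14 and 0.09, in the same order. How far reads shared between overlapping genes enter these values was not tested.

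**Figure D3:**
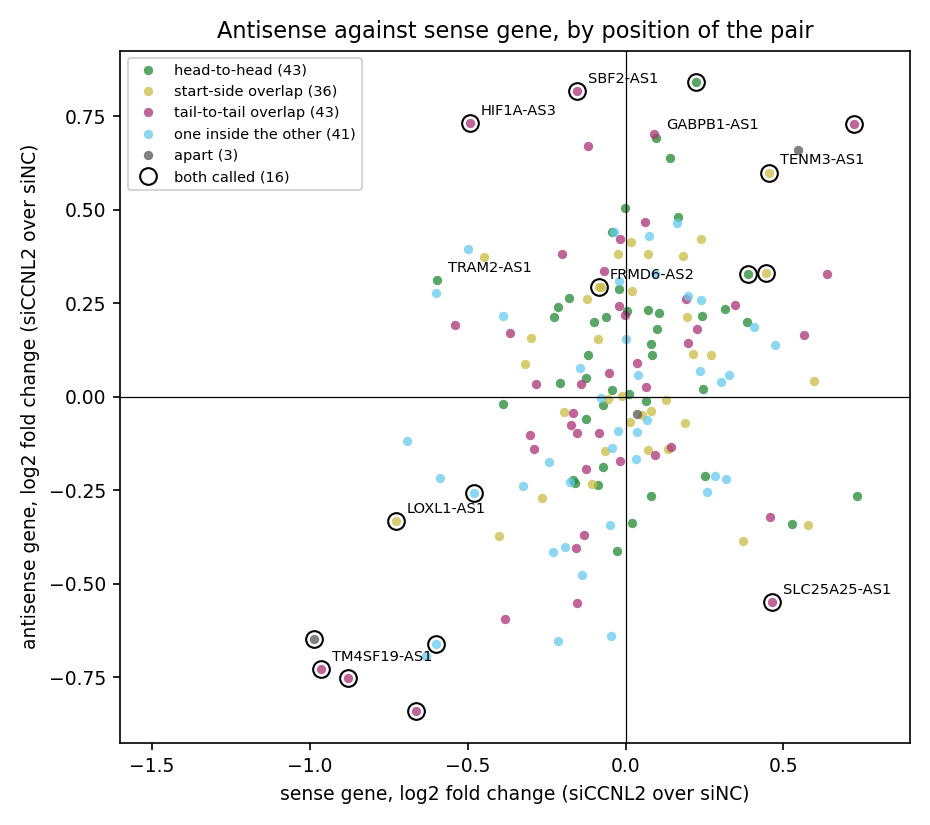
Log2 fold change (siCCNL2 over siNC) of the antisense gene (vertical axis) against its sense gene (horizontal axis) for 166 pairs, coloured by arrangement, with rings on the 16 pairs where both genes were called. Rings sit at the lower left and upper right for 12 pairs, and HIF1A-AS3, SBF2-AS1, FRMD6-AS2 and SLC25A25-AS1 lie in the opposite corners.

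Both genes were called in opposite directions in 4 pairs. The clearest was HIF1A-AS3 with HIF1A, which encodes the oxygen-regulated subunit of hypoxia-inducible factor. HIF1A-AS3 (ENSG00000258667, chr14:61707298-61751163, minus strand; GENCODE 29 names this identifier HIF1A-AS2) stood at 5.30, 4.54 and 5.32 CPM in siNC and 9.25, 8.48 and 7.43 CPM in siCCNL2 (log2 fold change 0.73, SE 0.15, adjusted p = 0.000369). Every siCCNL2 library was above every siNC library. HIF1A (ENSG00000100644, chr14:61695513-61748259, plus strand) moved the other way, with 186, 183 and 174 CPM in siNC and 135, 127 and 123 CPM in siCCNL2 (log2 fold change -0.49, SE 0.04, adjusted p = 3.94e-09). The genes overlap by 40962 bases at their 3′ parts. None of the 533 exonic bases of the antisense gene lies in an opposite-strand exon. Whether reads from the rest of HIF1A entered the count of HIF1A-AS3 was not tested. Their ratio rose by more than that of any other of the 166 pairs (difference 1.17, SE 0.15, adjusted p = 1.06e-06, limma on log2 of CPM plus 0.5, adjusted over 4116 pairs).

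SLC25A25-AS1 fell while SLC25A25, a mitochondrial carrier of ATP-magnesium and phosphate, rose. The antisense gene (ENSG00000234771, chr9:128108581-128118693, minus strand) stood at 8.25, 7.69 and 7.89 CPM in siNC and 5.14, 5.80 and 5.40 CPM in siCCNL2 (log2 fold change -0.55, SE 0.14, adjusted p = 0.00352). The sense gene stood at 16.9, 20.4 and 14.96 CPM in siNC and 22.8, 23.2 and 26.1 CPM in siCCNL2 (log2 fold change 0.46, SE 0.10, adjusted p = 0.000717). Neither pair of groups overlapped, and the ratio fell (difference -0.97, SE 0.16, adjusted p = 3.81e-05). The 3′ parts share 665 bases, all of them exonic in both genes.

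SBF2-AS1 rose, with 3.06, 2.02 and 2.25 CPM in siNC and 4.76, 4.39 and 3.81 CPM in siCCNL2 (log2 fold change 0.82, SE 0.21, adjusted p = 0.00428). SBF2, a pseudophosphatase of the myotubularin family, stood at 62.1, 58.6 and 61.4 CPM in siNC and 53.4, 54.2 and 56.4 CPM in siCCNL2 (log2 fold change -0.15, SE 0.05, adjusted p = 0.0322), and lost its call without siNC 1, siNC 3, siCCNL2 1 or siCCNL2 2 (adjusted p = 0.08 to 0.119). The ratio of the pair rose (difference 0.87, SE 0.20, adjusted p = 0.00169) and stayed called without each library. FRMD6-AS2 with FRMD6, a FERM-domain protein acting upstream of the Hippo pathway, had the smallest changes of the 4. FRMD6-AS2 stood at 12.8 ± 0.723 CPM in siNC and 15.7 ± 1.40 CPM in siCCNL2 (log2 fold change 0.29, SE 0.10, adjusted p = 0.0299) and FRMD6 at 435 ± 2.91 CPM in siNC and 410.3 ± 2.11 CPM in siCCNL2 (log2 fold change -0.09, SE 0.03, adjusted p = 0.0481). FRMD6-AS2 lost its call without siNC 1, siNC 2, siCCNL2 1 or siCCNL2 2 (adjusted p = 0.0523 to 0.114), and FRMD6 lost it without siNC 1, siNC 2, siNC 3, siCCNL2 1, siCCNL2 2 or siCCNL2 3 (adjusted p = 0.0667 to 0.132), that is, without any 1 of the 6 libraries.

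Among the 7 pairs that fell together was TM4SF19-AS1 with TM4SF19, a membrane protein of the L6 family. TM4SF19 stood at 10.3, 10.5 and 9.02 CPM in siNC and 5.09, 5.28 and 4.95 CPM in siCCNL2 (log2 fold change -0.96, SE 0.14, adjusted p = 4.59e-06), and 25.2% of the exonic bases of the antisense gene lay in opposite-strand exons. LOXL1-AS1 stood at 23.04, 21.7 and 23.04 CPM in siNC and 18.01, 18.00 and 17.8 CPM in siCCNL2 (log2 fold change -0.33, SE 0.08, adjusted p = 0.0026). LOXL1, which crosslinks elastin, fell further, with 32.2, 32.8 and 31.3 CPM in siNC and 18.1, 20.98 and 19.4 CPM in siCCNL2 (log2 fold change -0.73, SE 0.08, adjusted p = 6.43e-08), so the ratio rose (difference 0.38, SE 0.10, adjusted p = 0.00591, but 0.0647 in a limma fit without a variance trend). HMGA2-AS1 stood at 40.5, 36.4 and 41.4 CPM in siNC and 35.8, 31.2 and 31.5 CPM in siCCNL2 (log2 fold change -0.26, SE 0.07, adjusted p = 0.00666), and the chromatin factor gene HMGA2 around it at 532, 538 and 528 CPM in siNC and 380.1, 378 and 386 CPM in siCCNL2 (log2 fold change -0.48, SE 0.03, adjusted p = 3.47e-11). All groups of these 3 pairs were free of overlap.

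SLCO4A1-AS1 (log2 fold change -0.66, SE 0.17, adjusted p = 0.00457) fell inside SLCO4A1, an organic anion transporter that stood at 264 ± 0.926 CPM in siNC and 174 ± 6.57 CPM in siCCNL2 (log2 fold change -0.60, SE 0.04, adjusted p = 1.18e-11). A second member inside the same gene, SLCO4A1-AS2, was at 3.56 ± 0.738 CPM in siNC and 4.28 ± 0.757 CPM in siCCNL2 and was not called (log2 fold change 0.28, SE 0.20, adjusted p = 0.319). The remaining pairs were IRF1-AS1 with the interferon regulatory factor IRF1 (log2 fold changes -0.84 and -0.66), CLDN14-AS1 with the tight junction gene CLDN14 (-0.75 and -0.88) and TMEM92-AS1 with TMEM92 (-0.65 and -0.99), which do not overlap. These 3 antisense calls were lost without some libraries. For IRF1-AS1 these were siNC 2, siNC 3, siCCNL2 1 or siCCNL2 3 (adjusted p = 0.0582 to 0.128), for CLDN14-AS1 siNC 1, siNC 2, siCCNL2 2 or siCCNL2 3 (adjusted p = 0.0513 to 0.231) and for TMEM92-AS1 siNC 1, siNC 2, siCCNL2 2 or siCCNL2 3 (adjusted p = 0.0853 to 0.122).

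Of the 5 pairs that rose together, ALDH1A3-AS1 and ALDH1A3, an enzyme of retinoic acid synthesis, changed by nearly the same amount. ALDH1A3-AS1 stood at 5.42, 6.49 and 5.89 CPM in siNC and 8.81, 8.41 and 12.3 CPM in siCCNL2 (log2 fold change 0.73, SE 0.15, adjusted p = 0.000513) and ALDH1A3 at 50.4, 48.5 and 47.3 CPM in siNC and 79.2, 84.1 and 78.7 CPM in siCCNL2 (log2 fold change 0.72, SE 0.05, adjusted p = 1.3e-10). Of the 6792 exonic bases of the antisense gene, 1585 lie in exons of ALDH1A3. TENM3-AS1, whose 5′ part overlaps that of the teneurin gene TENM3, rose with it (log2 fold changes 0.60 and 0.45). NNT-AS1 rose with NNT, the mitochondrial transhydrogenase (0.33 and 0.39), and RASSF8-AS1 with RASSF8 (0.33 and 0.45). NNT-AS1 lost its call without siNC 1, siNC 3 or siCCNL2 2 (adjusted p = 0.0859 to 0.116) and RASSF8-AS1 without siNC 1, siCCNL2 1 or siCCNL2 2 (adjusted p = 0.061 to 0.117). FBXL19-AS1 with FBXL19 is the fifth.

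The ratio of antisense to sense within each library was called changed in 22 of 166 pairs (13.3%), 16 higher and 6 lower, against 21.6% of the other neighbour pairs and 21.3% of all pairs fitted. The other pairs were not matched to the named pairs for count, and the difference in share was not tested. In 10 of the 22 the antisense gene was itself called, and in 12 the sense gene alone was. TRAM2-AS1 is an example of the second kind. It stood at 3.77, 4.03 and 3.51 CPM in siNC and 3.72, 5.65 and 4.82 CPM in siCCNL2 and was not called (log2 fold change 0.31, SE 0.19, adjusted p = 0.224). TRAM2, an endoplasmic reticulum protein of the translocation machinery, stood at 371, 359.8 and 364 CPM in siNC and 242, 242 and 241 CPM in siCCNL2 (log2 fold change -0.60, SE 0.03, adjusted p = 2.28e-12). The ratio rose (difference 0.87, SE 0.18, adjusted p = 0.000778) and stayed called without each library.

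ARRDC1-AS1, which overlaps ARRDC1 by 35 bases at the 3′ ends, stood at 15.3, 14.7 and 13.6 CPM in siNC and 17.1, 17.1 and 15.7 CPM in siCCNL2, while ARRDC1, an adaptor of membrane budding, stood at 19.3, 20.7 and 18.1 CPM in siNC and 13.96, 11.7 and 14.1 CPM in siCCNL2 (log2 fold change -0.54, SE 0.10, adjusted p = 0.000135). The ratio rose (difference 0.72, SE 0.12, adjusted p = 2.93e-05). GAS6-AS1 was at 19.2 ± 0.505 CPM in siNC and 21.6 ± 1.34 CPM in siCCNL2 and was not called (adjusted p = 0.129), while GAS6, the ligand of the TAM receptors, fell, at 123 ± 6.96 CPM in siNC and 95.1 ± 4.87 CPM in siCCNL2 (log2 fold change -0.37, SE 0.05, adjusted p = 3.17e-06), and the ratio rose (difference 0.53, SE 0.10, adjusted p = 0.000264). SLCO4A1-AS2 (difference 0.84, SE 0.20, adjusted p = 0.00214) followed the same pattern beside SLCO4A1.

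The ratio fell for PITX1-AS1 (difference -0.90, SE 0.22, adjusted p = 0.00348), which was not called while the homeobox gene PITX1 rose, at 37.3 ± 1.43 CPM in siNC and 55.8 ± 3.08 CPM in siCCNL2 (log2 fold change 0.58, SE 0.06, adjusted p = 5.86e-08). It also fell for NHSL1-AS1 (difference -0.79), LBX1-AS1 (-0.87), ZNF710-AS1 (-0.71) and CD44-AS1 (-0.54). Calls of the ratio for these 4 were lost without siNC 1 or siNC 3 (adjusted p = 0.0514 to 0.0869), siNC 3 (adjusted p = 0.0664), siNC 1, siNC 3 or siCCNL2 3 (adjusted p = 0.0508 to 0.0568) and siNC 2, siNC 3, siCCNL2 2 or siCCNL2 3 (adjusted p = 0.0883 to 0.236), in that order. Among higher ratios, GABPB1-AS1 (difference 0.57, SE 0.12, adjusted p = 0.00049) kept its call without each library but missed the threshold in a limma fit without a variance trend (adjusted p = 0.0538).

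Of the other higher ratios, MAPKAPK5-AS1 (difference 0.44) lost its call without siNC 3 (adjusted p = 0.0777) and PCGF3-AS1 (0.43) without siNC 3 (adjusted p = 0.0897). SLC16A1-AS1 (0.37), beside the lactate transporter gene SLC16A1, lost it without siNC 3 or siCCNL2 1 (adjusted p = 0.124 to 0.224), MRPL20-AS1 (0.31) without siNC 3, siCCNL2 1 or siCCNL2 3 (adjusted p = 0.0506 to 0.112) and FRMD6-AS2 (0.37) without siNC 2, siCCNL2 1 or siCCNL2 2 (adjusted p = 0.0641 to 0.0895). NIFK-AS1 (0.66) lost it without siNC 1, siNC 3 or siCCNL2 1 (adjusted p = 0.0607 to 0.157). PRR7-AS1 (0.44) lost it without siNC 1, siNC 2, siNC 3, siCCNL2 1 or siCCNL2 2 (adjusted p = 0.0521 to 0.0999), and GTF3C2-AS2 (0.43) without siNC 1, siNC 2, siCCNL2 1, siCCNL2 2 or siCCNL2 3 (adjusted p = 0.0559 to 0.131).

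**Figure D4:**
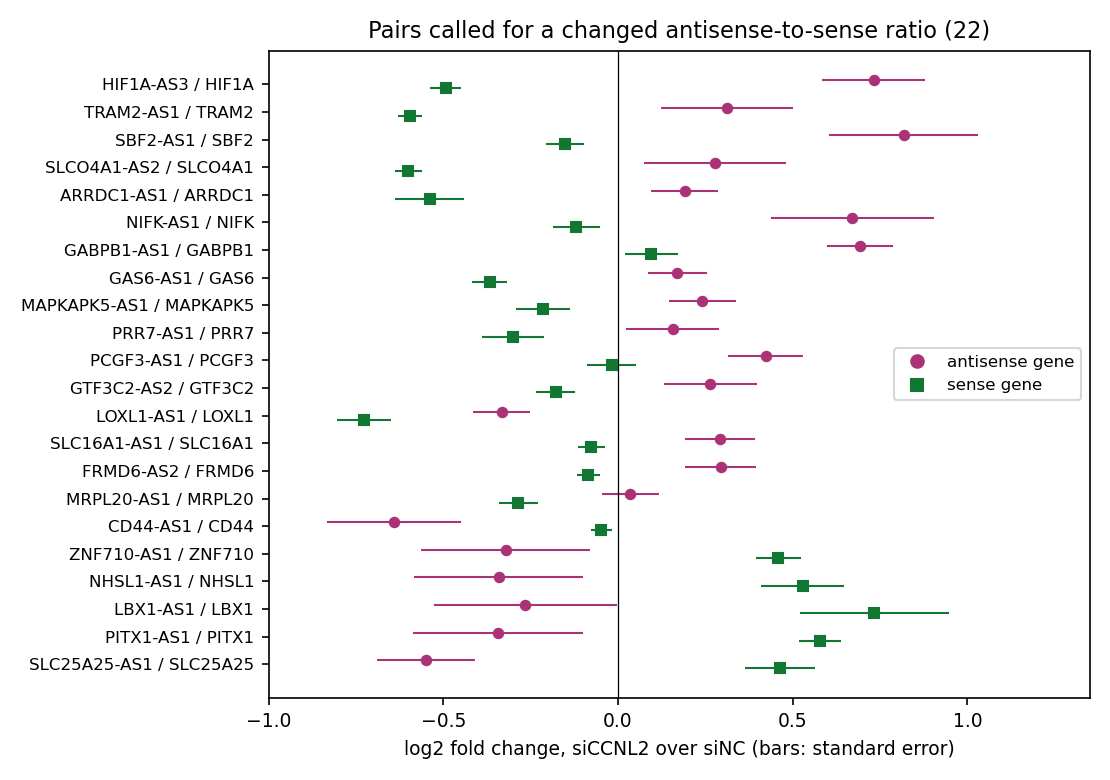
Log2 fold change, siCCNL2 over siNC (horizontal axis, bars are 1 standard error), of the antisense gene (purple circle) and the sense gene (green square) in the 22 pairs whose ratio was called. Pairs are ordered by the ratio, from HIF1A-AS3 at the top to SLC25A25-AS1 at the bottom, and most bars are shorter for the sense genes, an exception being ARRDC1, whose counts are close to those of its antisense gene.

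Of the 10 most abundant members, 2 were called, OIP5-AS1 and HMGA2-AS1, against 33.6% of all tested genes and 47.9% of those with 2000 to under 16000 counts. FGD5-AS1, the highest, stood at 158, 151 and 162 CPM in siNC and 164, 167 and 175 CPM in siCCNL2. Its groups did not overlap, but the change was small and missed the threshold (log2 fold change 0.11, SE 0.04, adjusted p = 0.057). With siNC 3 left out it passed (adjusted p = 0.0339), and likewise with siCCNL2 1 left out (adjusted p = 0.0378). OTUD6B-AS1 (52.6 ± 1.52 CPM in siNC and 54.4 ± 1.21 CPM in siCCNL2), NUTM2A-AS1 (43.9 ± 1.36 CPM in siNC and 42.03 ± 1.30 CPM in siCCNL2), TRHDE-AS1 (39.6 ± 3.90 CPM in siNC and 41.5 ± 3.73 CPM in siCCNL2) and PSMA3-AS1 (39.8 ± 1.98 CPM in siNC and 38.4 ± 4.14 CPM in siCCNL2) were not called, nor were SVIL-AS1, PAX8-AS1 and THUMPD3-AS1, all with log2 fold changes between -0.08 and 0.07. Reads of NUTM2A-AS1 may be uncertain where NUTM2 copies are near-identical, which was not tested. PAX8-AS1 stood at 29.6 ± 0.848 CPM in siNC and 28.03 ± 2.07 CPM in siCCNL2, while PAX8, the lineage factor it overlaps, fell, at 131 ± 3.29 CPM in siNC and 116 ± 4.07 CPM in siCCNL2 (log2 fold change -0.17, SE 0.04, adjusted p = 0.00311).

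Of 22 antisense genes well known from work on tumours and cell growth, 16 are members, and of these 4 rose (GABPB1-AS1, FOXD2-AS1, NNT-AS1 and SBF2-AS1) and 2 fell (OIP5-AS1 and LOXL1-AS1). These 6 of 16 are near the 33.6% called among all tested genes. Those not called included ZEB1-AS1, beside the EMT factor gene ZEB1 (2.93 ± 0.413 CPM in siNC and 3.94 ± 0.638 CPM in siCCNL2, log2 fold change 0.41, SE 0.21, adjusted p = 0.137), and VIM-AS1, beside the vimentin gene (4.33 ± 0.804 CPM in siNC and 5.22 ± 1.18 CPM in siCCNL2, log2 fold change 0.28, SE 0.19, adjusted p = 0.279). TMPO-AS1 missed the threshold (log2 fold change 0.64, SE 0.26, adjusted p = 0.0601) but passed it with siNC 1 (adjusted p = 0.0398) or siCCNL2 1 (adjusted p = 0.0119) left out. MAPKAPK5-AS1 (log2 fold change 0.24, SE 0.10, adjusted p = 0.0545), STARD4-AS1 (log2 fold change -0.37, SE 0.16, adjusted p = 0.0691) and PXN-AS1 (log2 fold change -0.55, SE 0.25, adjusted p = 0.0983) also missed it, and MCM3AP-AS1 was at 12.03 ± 0.591 CPM in siNC and 12.8 ± 1.06 CPM in siCCNL2. STARD4-AS1 passed with siCCNL2 1 left out (adjusted p = 0.0302). CDKN2B-AS1, also called ANRIL, had 1 count and ZEB2-AS1 had 3, both below the minimum.

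The extent of exons shared between strands was measured for such pairs. A median of 6.89% of a member's exonic bases lay in opposite-strand exons of GENCODE 29, with 44 members at 0 and 32 over 25%, up to 85.2% for HSD17B1-AS1. Some sense genes with shared exons had hardly any count, and others had more. OIP5, a centromere protein gene, had 1 count over the 6 libraries, and 38.0% of the exonic bases of OIP5 lie in opposite-strand exons. PCBP1, which encodes an RNA-binding protein, had 154 counts, with 52.2% of its bases shared. ADIRF had no count, with 91.9% shared, whereas ZNF337 had 349 counts and was called higher (log2 fold change 0.56, edgeR adjusted p = 0.0436), with 73.8% shared. Whether shared exons altered any count was not tested.

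Across protein-coding genes the median deposited score was 12.3 where up to 25% of exonic bases were shared, 4.74 from 25 to 50%, 0.950 from 50 to 75% and 0 above 75%, over 5870, 616, 118 and 54 genes. The 13043 genes with none shared had a median of 2.13. Gene kinds also differ between these classes, and their part was not tested. Among the 44 members with no base in an opposite-strand exon, 6 rose and 2 fell (18.2% called), a subset chosen after the data had been seen. Among 20 members that overlap no tested opposite-strand gene, 4 rose and 2 fell (30.0% called). Over all tested genes the share called was 33.6%.

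**Figure D5:**
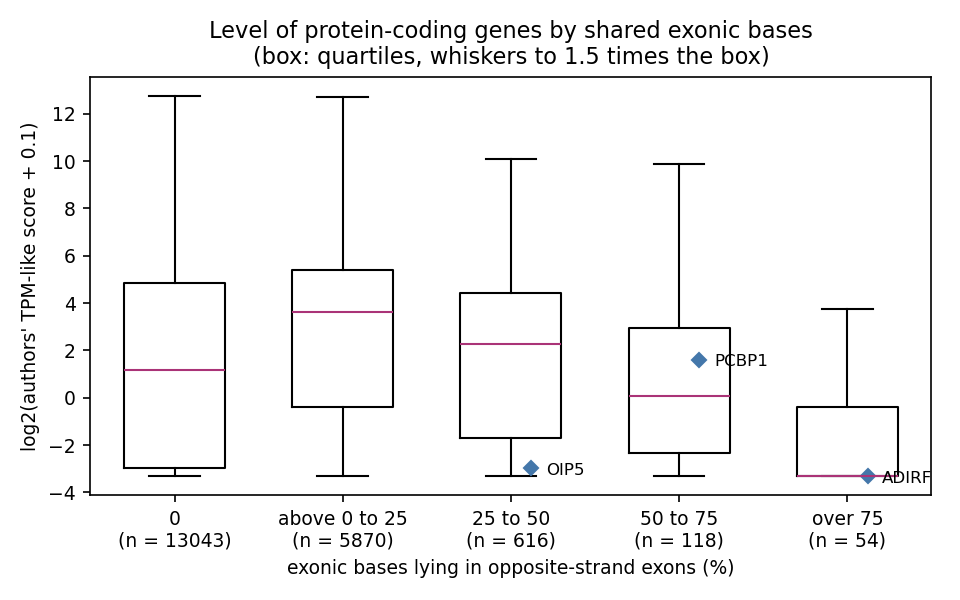
Level of protein-coding genes, as log2 of the deposited TPM-like score plus 0.1 (vertical axis), by the percentage of their exonic bases lying in opposite-strand exons (horizontal axis). Boxes give quartiles over genes, with the number of genes under each, and diamonds mark OIP5, PCBP1 and ADIRF. From the class above 0 to 25%, median scores fall over the higher classes, to 0 above 75%. Genes with none shared had a median of 2.13, below the 4.74 of the 25 to 50% class.

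Genes that handle antisense RNA were looked at by list. Of 23 tested genes of nuclear RNA decay, which removes many such transcripts, 2 rose and 6 fell, with a median log2 fold change of -0.05, against 0.002 over all tested genes, of which 33.6% were called. RBM7, the RNA-binding part of an exosome targeting complex, rose from 15.5 ± 0.369 to 22.4 ± 1.21 CPM (edgeR adjusted p = 2.87e-05) and ZC3H18 also rose, while the exosome subunit gene EXOSC1 fell from 44.3 ± 2.90 to 35.0 ± 2.66 CPM (adjusted p = 0.000408) and NCBP2 also fell. Of 19 genes of early termination and the Integrator complex, 4 rose and 3 fell (median 0.06). INTS3 rose from 61.3 ± 4.26 to 90.6 ± 2.54 CPM (adjusted p = 1.25e-08) and ZC3H4 rose, while CSTF2 and WDR82 fell. Of 17 genes that sense, cut or edit double-stranded RNA, 2 rose and 4 fell (median -0.04). DICER1 fell from 214.8 ± 12.9 to 139 ± 6.82 CPM (adjusted p = 1.45e-10) and OAS3 fell, while DROSHA rose from 56.9 ± 1.26 to 81.5 ± 2.91 CPM (adjusted p = 2.34e-08).

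Near the count minimum, IRF1-AS1 and PROSER2-AS1 (200 counts each) and LBX1-AS1 (204) are members, and CDK6-AS1 and NFYC-AS1 (199 each) and ECI1-AS1 (198) are not. Log2 fold changes were -0.84, -0.59 and -0.27 inside and -0.37, 0.55 and -0.25 outside. Other noncoding classes with at least 200 counts gave 9 higher and 3 lower of 77 divergent transcripts (15.6%) and 17 higher and 9 lower of 88 LINC genes (29.5%). The share called was 19.0% of the members and 33.6% of all tested genes. The classes were not matched for count. Over all genes the share called was 15.2% from 200 to under 300 counts and 47.9% from 2000 to under 16000. The differences between classes were not tested.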

How the data were processed

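RNA of 6 HEY libraries was measured by sequencing. The authors deposited a table of raw read counts, whole numbers that are not normalized, and a table of a TPM-like score adjusted for gene length and library size, treated here as a score. Tools named in the submitters' processing notes are fastp 0.23.0, HISAT2 and HTSeq 2.0.1, with build GRCh38. Library kit, annotation and strand setting are not given in the sources used here. Groups follow the sample titles. Each of 60835 names was used once (62710 rows), and no column belonged to another sample.

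Tests used edgeR 4.0.16 in R 4.3.3 (filterByExpr, TMM, quasi-likelihood, Benjamini-Hochberg over 15346 genes, called under 0.05). Ratios within pairs used limma 3.58.1 on log2 CPM plus 0.5, over 4116 pairs (opposite-strand neighbours within 1000 bases and name-matched pairs). Both were tested on simulated data. There edgeR recovered 52% of 1.25-fold, 74% of 1.5-fold, 88% of 2-fold and 98% of 3-fold changes (50 genes each), with 13 false calls. The changed genes were drawn from all but the scarcest tested genes. Median levels were 19.1 CPM over all tested genes and 4.31 CPM over the members. Recovery among members alone was not measured. Exons came from GENCODE 29 by identifier for all 184 members. DESeq2 1.42.0, other scalings, filters, thresholds, limma fits on log2 of the score, a replicate block and leaving out each library were alternatives. Counting precision covers these libraries only.

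Named genes are the 10 most abundant members, up to 12 called per direction by fold (at least 1 CPM), pairs called in opposite directions, up to 6 ratios per direction, a list of 22 known antisense genes, 3 names either side of the minimum, and 2 called genes per direction of the other lists. Other called members were named after their values were seen. The members and lists were chosen with earlier results of these data known.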

Additional observations from a re-analysis of the deposited data

How the results depend on the processing

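Of the 35 called members, 18 (11 higher, 7 lower) held their call and direction under all 16 other fits, namely other scalings, filters and tools, the replicate block and leaving out each library. The other 17 lost it in at least 1. Among ratios, 8 of 22 held under all 11 alternatives. No single gene or ratio that was called changed direction. The DESeq2 Wald test did not call CLDN14-AS1, FRMD6-AS2, HOXA-AS2, MCPH1-AS1, NIFK-AS1, NNT-AS1, RASSF8-AS1, SLC16A1-AS1, THAP9-AS1 and TMEM92-AS1 (adjusted p = 0.0523 to 0.107). Limma on log2 of the score plus 0.1 did not call IRF1-AS1, KLC1-AS1, PCBP1-AS1 and TTC28-AS1 (adjusted p = 0.0588 to 0.136), nor 7 of those 10 (CLDN14-AS1, MCPH1-AS1, NIFK-AS1, NNT-AS1, RASSF8-AS1, SLC16A1-AS1 and THAP9-AS1). Leaving out 1 library gave 25 to 34 called members (17 to 22 higher, 7 to 16 lower), 57 to 66 called sense genes (25 to 29 higher, 31 to 37 lower), 4177 to 4768 called genes in all, 14 to 22 called ratios (11 to 16 higher, 3 to 7 lower) and a difference in the members' share of counts of 0.00135 to 0.00699 percentage points, against 0.00421 with all. The lower members numbered 7 without siNC replicate 2, and 8 without siCCNL2 replicate 2 or 3. At an adjusted p under 0.01, 19 members were called (12 higher, 7 lower). With a fold of at least 1.5, 1092 genes (533 higher, 559 lower), 20 members (13 higher, 7 lower) and 12 sense genes (4 higher, 8 lower) were called. A minimum of 100 counts gave 120 called sense genes (51 higher, 69 lower) and one of 500 gave 32 (12 higher, 20 lower). Members that overlap no tested opposite-strand gene gave 6 calls (4 higher, 2 lower) and 4 of their sense genes (2 higher, 2 lower), and members with no shared exonic base gave 8 (6 higher, 2 lower) and 18 sense genes (8 higher, 10 lower), fewer by construction. The limma fit without a variance trend called 11 ratios (8 higher, 3 lower), and the cause was not tested. With upper-quartile factors, the split over all genes was 2368 higher and 2783 lower, against 2634 and 2525. Whether the replicate numbers pair the samples could not be told, since all correlations of deviations between the groups were near 0. Same-numbered libraries correlated at 0.0352, 0.0147 and 0.0453, and those of different numbers at -0.049 to 0.0151. The siNC replicate 2 correlated slightly better with siCCNL2 replicate 1 (0.0151) than with its own number. The replicate block called 37 members (23 higher, 14 lower), 69 sense genes and 25 ratios. Of the members, 110 had under 500 counts, and the median standard error of a log2 fold change was 0.24 from 200 to under 300 counts and 0.072 from 2000.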
